A study of Mus musculus with 24 samples.

Results

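The adhesion G protein-coupled receptor genes Gpr123, Gpr124, Gpr125, Bai1, Bai2, Bai3, Lphn1, Lphn2, Lphn3 and Gpr56 were followed in hippocampal slices, in steady-state RNA, in ribosome footprints and in footprints per RNA. They are 10 genes of the 23845 in the RNA table and the 20436 in the footprint table, each listed under that symbol in both tables, and all 10 passed the filter on low counts in both assays. The group was drawn up around Gpr123, selected on the rise of its RNA after DHPG. That response of Gpr123, and its footprints per RNA after DHPG, which use the same RNA, are therefore given as a description, and nothing is read from whether the fit across all genes calls them. The other 9 members are listed with it as adhesion GPCRs.

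Adhesion GPCRs typically carry a long extracellular region joined to the usual membrane-spanning receptor domain, and most cut themselves at a site just outside the membrane so that the outer fragment stays bound to the rest. They read contact with other cells and with the matrix. In brain, latrophilins (Lphn1 to Lphn3) bind teneurins and FLRT proteins across the synapse, the BAI receptors (Bai1 to Bai3) act at synapses, and Gpr56 acts in cortical development and myelination.

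Slices came from male WT and Tsc2+/- littermates aged 28 to 42 days, and the deposited tables are named for CA1, so they are taken to be the batches of the study in which CA3 was cut off. Tsc2 encodes tuberin, a brake on mTORC1 signalling, and Tsc2+/- mice lack 1 copy in the germline, made by crossing CMV-Cre with Tsc2flox mice. Slices received vehicle (ACSF) or 100 µM DHPG for 5 min, which activates the mGluR1 and mGluR5 receptors for glutamate, and all slices, controls included, were then put in cycloheximide, which holds ribosomes in place. The 4 groups were WT vehicle, WT DHPG, Tsc2+/- vehicle and Tsc2+/- DHPG, each with 3 RNA libraries and 3 footprint (RPF) libraries from the same lysates, and slices of several mice were pooled in each library.

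RNA libraries held 14801679 to 24067838 counts and RPF libraries 5296006 to 13613673. In the RPF libraries of replicates 2 and 3, 97.87% to 98.47% of the non-zero counts were even, against 48.18% to 49.03% in replicate 1 and about the same in all RNA libraries (48.52% to 49.75%). Whether reads were counted repeatedly there was not tested. Footprint counts are given as deposited, so they may overstate the depth of those libraries. Tsc2 RNA was 191 ± 4.64 CPM (count share of the TMM-scaled library; SD, n = 3) in WT vehicle and 134 ± 4.84 in Tsc2+/- vehicle, and its lowest WT library lay above its highest Tsc2+/- library in both assays. Among marker genes, Prox1, a marker of dentate granule cells, was lower in Tsc2+/- RNA (log2 fold change -0.41, SE 0.0853, adjusted p = 0.0256 by edgeR's quasi-likelihood test), 1 of 5 dentate markers to pass. Summed CA1 pyramidal markers ran from 1639 to 1815 RNA CPM over all libraries. No marker list was at 0 in RNA. In footprints the blood markers had a library at 0 in each of the 4 groups, and their highest library was 0.792 CPM (WT vehicle). In such bulk slices, fewer cells of a type and less RNA per cell cannot be told apart.

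The start codons of the members are shown because close relatives among the members differed in how many footprints they carried per RNA. Each run below holds 9 bases on either side of the start codon in the spliced RefSeq transcript with the longest coding sequence (GRCm38.p6, the build of mm10), with the ATG in capitals.
Gpr123: gctgaggagATGactcagtgg
Gpr124: gatgggttgATGggcgcgggg
Gpr125: gtcagcggcATGgagccgccg
Bai1: cgagctaggATGaggggccag
Bai2: ggacataggATGaccccagcc
Bai3: tgacataggATGaaggctgtt
Lphn1: gccttcgccATGgcccgcttg
Lphn3: aacacagtcATGtggccacca
Gpr56: aggagtataATGgctgtccag
These start codons lie at chr7:139840806-139840808 on the plus strand (Gpr123), chr8:27085946-27085948 plus (Gpr124), chr5:50058773-50058775 minus (Gpr125), chr15:74529157-74529159 plus (Bai1), chr4:129992069-129992071 plus (Bai2), chr1:25826758-25826760 minus (Bai3), chr8:83915499-83915501 plus (Lphn1), chr5:81310025-81310027 plus (Lphn3) and chr8:95002450-95002452 plus (Gpr56). The transcript listed for Lphn2 begins at its start codon (chr3:148954633-148954635, minus strand), so no run is shown for it. The 3 BAI genes share the letters taggATGa across the start codon. A purine 3 bases before the ATG was present in 8 of the 9 runs, Gpr124 being the exception, and a G directly after the ATG in Gpr124, Gpr125, Lphn1 and Gpr56. Over 12681 genes, 86.4% had that purine, 52.5% had that G and 45.3% had both. These matches are a description of the letters only.

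In WT vehicle slices the members spanned a wide range of RNA levels, here given as CPM per kb of transcript so that genes can be compared. Bai2 was highest, at 214 ± 10.1 (SD, n = 3), above 98.5% of the 12533 genes with values in both assays. Lphn1 followed at 95.6 ± 6.62 and Bai1 at 77.0 ± 4.15. Gpr56 (39.9 ± 4.64), Gpr123 (29.6 ± 2.55), Bai3 (26.0 ± 2.001), Lphn2 (19.2 ± 0.369) and Lphn3 (11.03 ± 0.792) lay above the median of all genes, which was 8.24. Gpr125 (4.37 ± 0.127) and Gpr124 (1.62 ± 0.251) lay below it, and Gpr124, known for its role in brain blood vessels, had only 112 to 220 RNA counts in a library. Every neighbour in this order was separated in all 3 libraries except Gpr123 and Bai3, whose ranges overlapped. Within the A-type receptors, Gpr123 RNA stood 6.77 times above Gpr125 and 18.2 times above Gpr124.

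Footprint levels, as CPM per kb of coding sequence, ordered the members differently. Gpr56 (79.4 ± 13.0), Bai3 (61.4 ± 7.06), Lphn3 (55.8 ± 7.06), Lphn1 (50.5 ± 3.26), Bai2 (47.3 ± 6.35) and Bai1 (42.9 ± 6.59) each overlapped the next in this order. Lphn2 (25.5 ± 2.45) and Gpr123 (20.1 ± 0.849) stood below them and apart from each other, and the all-gene median was 16.7. Gpr125 (1.94 ± 0.182) and Gpr124 (0.542 ± 0.195) were far lower. Gpr124 had 10 to 30 footprint counts in a library, so its footprint values carry little information.

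**Figure D1:**
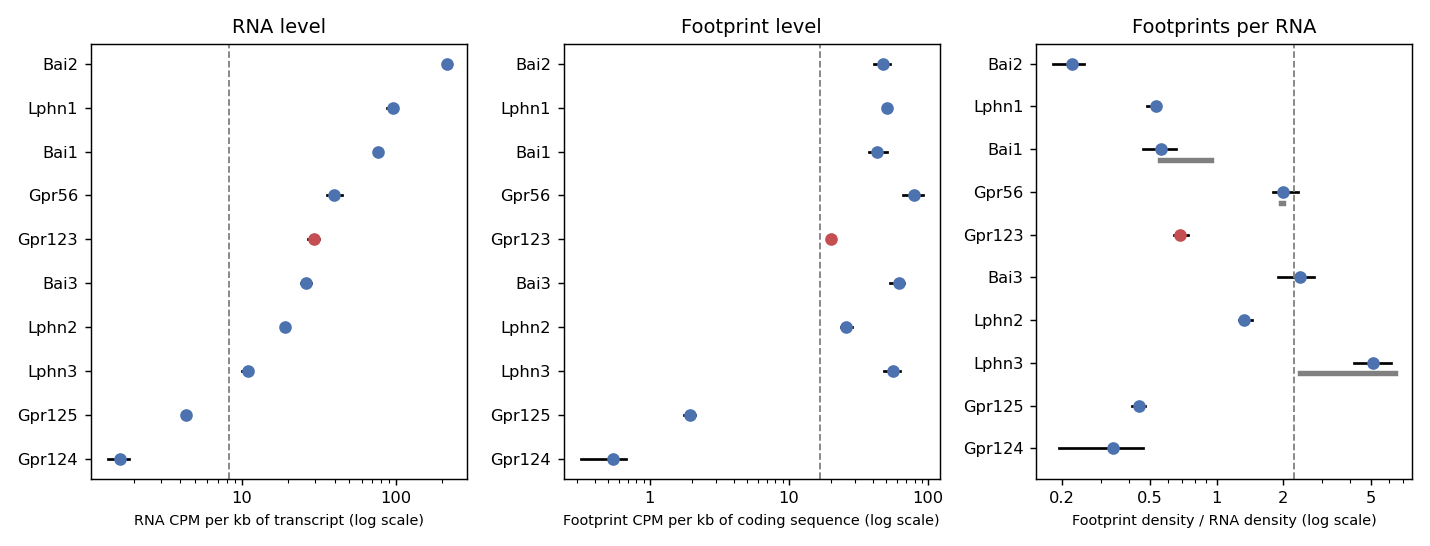
RNA level (CPM per kb of transcript), footprint level (CPM per kb of coding sequence) and footprints per RNA (the ratio of these densities) of the 10 members in WT vehicle slices, all on log axes. Points are means of 3 libraries, black lines run from the lowest to the highest library, grey bars give the ratio over all RefSeq isoforms, dashed lines are all-gene medians and Gpr123 is red; Bai2 is highest in RNA (214) and lowest in footprints per RNA (0.222).

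Footprints per RNA, the ratio of the 2 densities, spanned 23.1-fold among the members. Lphn3 had the highest ratio, 5.11 ± 1.01 (SD, n = 3), followed by Bai3 at 2.39 ± 0.443 and Gpr56 at 1.99 ± 0.304, against an all-gene median of 2.24. Lphn2 stood at 1.33 ± 0.106. Gpr123 (0.684 ± 0.0536), Bai1 (0.559 ± 0.0949), Lphn1 (0.529 ± 0.0386), Gpr125 (0.444 ± 0.0292), Gpr124 (0.340 ± 0.137) and Bai2 (0.222 ± 0.0353) lay at or below the 7.5th percentile of all genes. Bai2 lay at percentile 0.4 to 0.5 in the 4 groups.

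Close relatives were far apart on this scale. Bai2 had 8.25 times the RNA of Bai3, yet 0.771 times its footprints, which makes the ratio 10.8 times higher for Bai3. Lphn1 had 8.67 times the RNA of Lphn3 and 0.905 times its footprints, a ratio 9.64 times higher for Lphn3. Bai3 stood above Bai1 and Bai1 above Bai2 in 12 of 12 lysates, and Lphn3 above Lphn2 and Lphn2 above Lphn1 in 12 of 12. With the transcripts used, Lphn3 was the highest member and Bai2 the lowest in every one of the 12 lysates. Gpr123 was above Gpr125 in 9 of 12 lysates and above Gpr124 in 10 of 12.

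The ratios lean on the transcript taken for each gene. RefSeq lists 13 protein-coding isoforms of Lphn3 of 4846 to 12771 nt, over which its WT vehicle ratio ran from 2.39 to 6.43, and 2 of Bai1, over which it ran from 0.557 to 0.946. Lphn3 stayed above Lphn1 and Bai3 above Bai2 over these ranges. The rank of Lphn3 as the highest member did not hold for every isoform. At its lowest isoform ratio it was 2.35 in WT DHPG, against 2.55 for Bai3. In Tsc2+/- DHPG these values were 2.17 and 2.46. Exons of Gpr124, Lphn1 and Gpr56 overlap exons of Brf2, Gm10644 and Gm51544 on the opposite strand. The RNA kit that the methods name for those batches keeps strand, but the counting setting is not given in the sources used here, so the part of those overlaps in the counts was not tested.

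Base composition varied with the ratio among the members. GC content of the coding sequence was 46.2% in Bai3, 50.4% in Lphn3 and 57.4% in Gpr56, with Lphn2 between Bai3 and Lphn3. It was 58.3% in Lphn1, 60.3% in Gpr123, 60.6% in Gpr124, 61.5% in Bai1 and 62.0% in Bai2, with Gpr125 at 52.2% an exception among the low ratios. Across the 10 members, which share libraries and partly ancestry, Pearson's r between GC content and the log2 ratio was -0.75 and Spearman's rho -0.82. Across 12513 genes r was -0.46 and rho -0.48. Whether base composition affected the recovery of footprints or of RNA was not tested. For coding length r was -0.04 across the members and -0.29 across all genes, and for transcript length 0.45 and -0.12.

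Gpr123, an orphan receptor enriched in brain, was the gene the group was selected on. Its RNA was 127, 144 and 151 CPM in WT vehicle (replicates 1, 2 and 3) and 157, 160 and 175 in WT DHPG. In Tsc2+/- it was 135, 156 and 156 in vehicle and 168, 163 and 174 in DHPG. All DHPG libraries thus lay above all vehicle libraries of their genotype, and DHPG exceeded vehicle in 6 of 6 same-numbered contrasts. The log2 difference was 0.22 (SE 0.0574) in WT, 0.18 (SE 0.056) in Tsc2+/- and 0.20 (SE 0.0401) averaged over the genotypes, a rise of 14.9%. In that averaged RNA comparison 3 of 14516 genes (0.0207%) were called at an adjusted p under 0.1. Gpr123 was 1 of them and the other 9 members were not, but the choice of Gpr123 used this contrast, so its call is no evidence for the rise. The call was also unsteady, being present in 6 of 22 alternative fits and in 2 of the 12 that each left out a single library. The interaction of genotype and DHPG rests on the same RNA values and was -0.04 (SE 0.0801). It is given as a description, and neither a difference nor a likeness between genotypes is read from it.

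No difference in the footprints of Gpr123 was detectable at this depth. They were 33.4, 32.6 and 35.4 CPM in WT vehicle and 32.8, 38.8 and 34.0 in WT DHPG. In Tsc2+/- they were 32.5, 36.1 and 30.4 in vehicle and 36.3, 28.8 and 29.5 in DHPG. The groups overlapped, and 2 of 6 same-numbered contrasts were higher in DHPG. The averaged log2 fold change was 0.00 (SE 0.0791, adjusted p = 0.998, edgeR quasi-likelihood), from 154 to 450 footprint counts per library. Footprint CPM per RNA CPM was 0.262, 0.226 and 0.235 in WT vehicle and 0.209, 0.242 and 0.194 in WT DHPG. In Tsc2+/- it was 0.240, 0.231 and 0.195 in vehicle and 0.215, 0.176 and 0.169 in DHPG. The difference in this ratio was -0.20 on the log2 scale (SE 0.0881), lower in 5 of 6 same-numbered contrasts, given as a description.

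**Figure D2:**
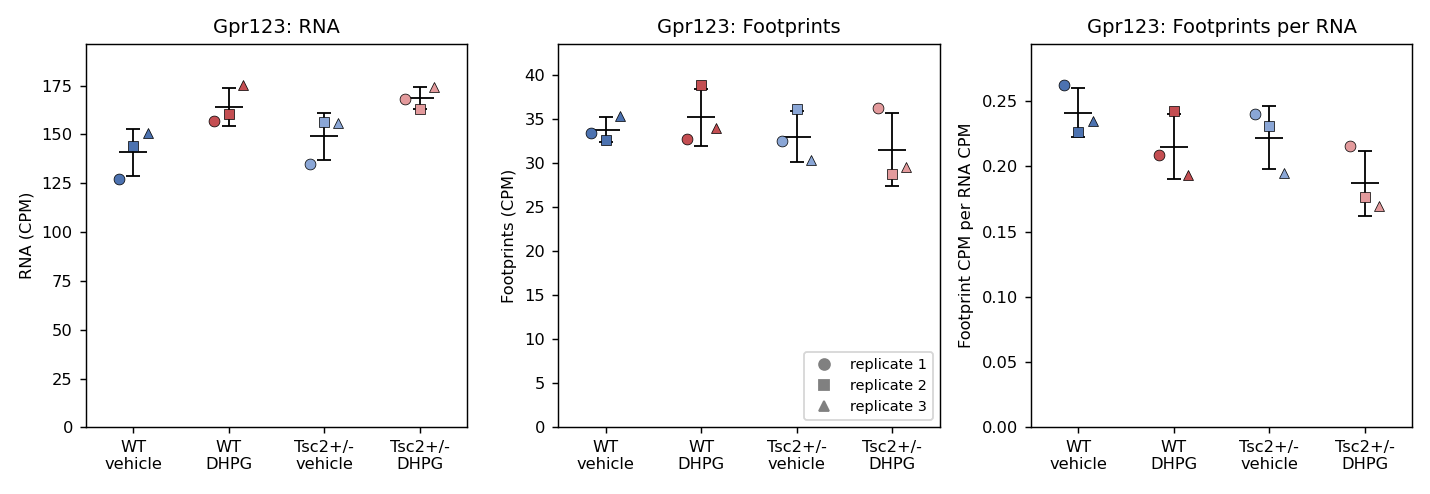
Gpr123 RNA (CPM), footprints (CPM) and footprint CPM per RNA CPM in each library of the 4 groups, with axes from 0; symbols mark replicate numbers 1 to 3, and bars are the mean ± SD of 3 libraries. RNA is higher in DHPG than in vehicle in both genotypes, while footprints overlap between all groups.

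Among the other members, no RNA difference with DHPG passed the adjusted threshold. Bai1, which signals to Rac through ELMO and DOCK proteins, was at 479, 506 and 454 CPM in WT vehicle and 537, 514 and 538 in WT DHPG. The groups did not overlap (log2 fold change 0.14, SE 0.0516, adjusted p = 0.8). Lphn1 was at 803, 825 and 722 CPM in WT vehicle and 867, 836 and 857 in WT DHPG, again without overlap (0.12, SE 0.0476, adjusted p = 0.8). Gpr56 was at 141, 162 and 129 CPM in WT vehicle and 160, 165 and 160 in WT DHPG (0.17, SE 0.0603, adjusted p = 0.8), and its groups overlapped. Besides Gpr123, which was chosen for such a rise, Bai1, Lphn1 and Lphn2 had all WT DHPG RNA libraries above all WT vehicle libraries, as 5.43% of all genes did. In Tsc2+/- the same differences were 0.04 (Bai1), 0.02 (Lphn1) and 0.08 (Gpr56), and the interaction was not detectable for any of the other members.

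The WT vehicle library of replicate 2 was the highest of its group for Bai1, Lphn1 and Gpr56. Without it, Bai1 and Gpr56 passed the threshold in WT, at 0.22 (adjusted p = 0.0812) and 0.26 (adjusted p = 0.0894), and the averaged Gpr56 difference passed too (0.17, adjusted p = 0.0918). The number of genes called in WT then rose from 0 to 61 of 14677. Leaving out the highest vehicle library raises such a difference by construction, so these passes are a description and no support for a rise. Over the 9 members other than Gpr123 the median log2 difference was 0.06 in WT, 0.04 in Tsc2+/- and 0.03 averaged, beside an all-gene median of 0.00 in each. At an unadjusted p under 0.05, 3 members besides Gpr123 stood in WT (6.07% of all genes did), 0 besides Gpr123 in Tsc2+/- (4.86%) and 3 besides Gpr123 in the average (7.61%). At the adjusted threshold edgeR called 0% of all genes in WT and in Tsc2+/-. DESeq2 called 0 members in any of the 20 comparisons.

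No footprint difference with DHPG passed the threshold. Bai2, the most abundant member in RNA, had 248, 190 and 219 footprint CPM in WT vehicle and 211, 191 and 197 in WT DHPG. The groups overlapped, with a log2 fold change of -0.13 in WT (SE 0.0607, adjusted p = 0.691) and -0.09 averaged (SE 0.043, adjusted p = 0.694). Bai3, the receptor for C1q-like proteins, was higher in 6 of 6 same-numbered contrasts, at 0.07 (SE 0.0435, adjusted p = 0.784). No member was called in WT (0.0311% of 12877 genes were), in Tsc2+/- (0%) or in the average (0.0311%). Bai2 alone had an unadjusted p under 0.05 in WT (7.07% of genes) and in the average (6.96%), and 0 members did in Tsc2+/- (3.87%).

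In footprints per RNA, 3 members, Bai1, Bai2 and Lphn1, had an unadjusted p under 0.05 for DHPG in WT, and none passed the adjusted threshold. This ratio uses the same WT RNA libraries as the RNA differences above, so it is not a separate observation from them. Footprints alone differed in WT by -0.10 (Bai1), -0.13 (Bai2) and -0.06 (Lphn1) on the log2 scale. Bai1 stood at 0.493, 0.351 and 0.419 footprint CPM per RNA CPM in WT vehicle and at 0.361, 0.349 and 0.353 in WT DHPG (log2 difference -0.24, SE 0.0831, adjusted p = 0.35). Bai2 stood at 0.214, 0.155 and 0.197 in WT vehicle and 0.169, 0.157 and 0.155 in WT DHPG (-0.22, SE 0.0767, adjusted p = 0.35). Lphn1 stood at 0.294, 0.257 and 0.291 in WT vehicle and 0.248, 0.243 and 0.252 in WT DHPG, without overlap, as in 4.98% of all genes in that direction (-0.18, SE 0.0747, adjusted p = 0.455). Replicate 2 of WT vehicle was the low library in all 3 genes and lay near the DHPG values, whereas replicates 1 and 3 lay above them. With the WT vehicle RNA library of replicate 2 left out, Bai1 (-0.32, edgeR adjusted p = 0.0544) and Bai2 (-0.29, adjusted p = 0.0654) passed the threshold. That fit called 203 of 12796 genes, against 7 of 12785 with the library. Leaving out the library behind the lowest vehicle ratio widens such a difference by construction, so these passes are a description.

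**Figure D3:**
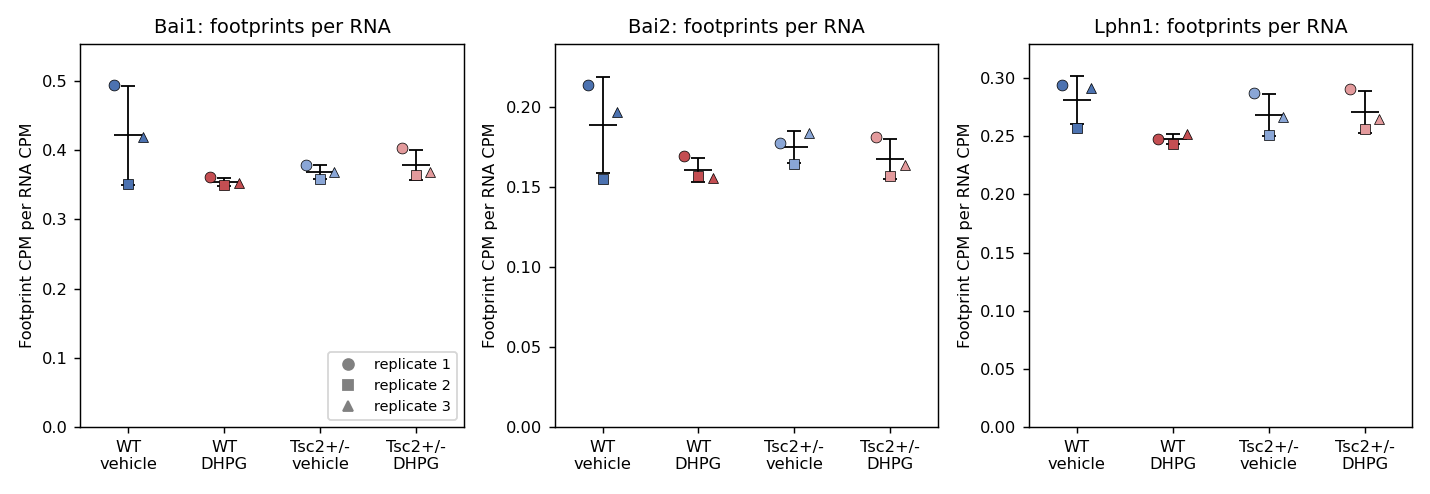
Footprint CPM per RNA CPM of Bai1, Bai2 and Lphn1 in each library of the 4 groups, with axes from 0; symbols mark replicate numbers 1 to 3, and bars are the mean ± SD of 3 libraries. In WT vehicle, replicate 2 is the lowest library in all 3 genes (0.351, 0.155 and 0.257), and the WT DHPG libraries sit close together.

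In Tsc2+/- the differences in these ratios with DHPG were 0.04 (Bai1), -0.06 (Bai2) and 0.01 (Lphn1) on the log2 scale. Whether the WT and Tsc2+/- responses in footprints per RNA differ was not tested. The averaged difference was -0.14 for Bai2 (SE 0.0543, adjusted p = 0.507) and -0.15 for Gpr56 (SE 0.0643, adjusted p = 0.553), with Gpr56 lower in 5 of 6 same-numbered contrasts. No member was called for footprints per RNA in WT (0.0548% of 12785 genes were), in Tsc2+/- (0%) or in the average (0.0469%). An unadjusted p under 0.05 was reached by 3 members in WT (8.64% of genes), 0 in Tsc2+/- (3.32%) and, besides Gpr123, 2 in the average (8.05%). Over the 9 members other than Gpr123 the median was -0.18 in WT (6 of 9 lower), 0.01 in Tsc2+/- (4 of 9 lower) and -0.07 in the average (6 of 9 lower), beside 0.00 for all genes in each.

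For genotype, no member was called in any assay. The shares of all genes called in RNA were 0.0964% in vehicle, 0.0482% in DHPG and 0.248% averaged. They were 0.0233%, 0.0155% and 0.0544% for footprints and 0% in each case for footprints per RNA. Gpr124, which acts in the growth of brain vessels, was at 7.53, 9.07 and 10.3 RNA CPM in WT vehicle and 8.60, 7.29 and 5.69 in Tsc2+/- vehicle. The groups overlapped, and the log2 difference was -0.35 (SE 0.161, adjusted p = 0.961), or -0.26 averaged over treatments (SE 0.115, adjusted p = 0.749). Summed endothelial and mural markers (5 genes) ran from 87.1 to 103 RNA CPM in WT vehicle and from 74.0 to 99.3 in Tsc2+/- vehicle, and their part in the Gpr124 difference was not tested.

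The Bai3 RNA difference between genotypes did not pass the threshold. In DHPG its RNA was 142, 136 and 137 CPM in WT and 150, 151 and 151 in Tsc2+/-, without overlap, as in 4.9% of all genes in that direction (log2 difference 0.12, SE 0.0572, adjusted p = 0.996), and averaged over treatments it differed by 0.09 (SE 0.0403, adjusted p = 0.762). Lphn2 footprints were 0.10 higher on average (SE 0.0513, adjusted p = 0.731), with 3 of 6 same-numbered contrasts higher. Bai1 footprints per RNA under vehicle differed by -0.18 on the log2 scale, Tsc2+/- minus WT (SE 0.0836, adjusted p = 0.934), where WT replicate 1 was the high library. In DHPG all Tsc2+/- libraries lay above all WT libraries in footprints per RNA for 3 of 10 members, Gpr124, Bai1 and Lphn1, as in 4.44% of all genes. Gpr124 had 10 to 30 footprint counts in a library, so its place in that count carries little information.

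Unadjusted p under 0.05 for genotype was reached in RNA by 1 member in vehicle (4.95% of genes), 1 in DHPG (4.73%) and 2 averaged (6.28%). It was reached in footprints by 0 members in vehicle (6.71%), 0 in DHPG (4.25%) and 1 averaged (6.83%). In footprints per RNA it was reached by 1 member in vehicle (5.15%), 0 in DHPG (2.7%) and 0 averaged (4.08%). The interaction of genotype and DHPG called 0 members and 0% of genes in RNA and in footprints, with 0 members at an unadjusted p under 0.05 in either (3.51% and 3.84% of genes). The closest was Bai1 footprints, at 0.18 (SE 0.0914, adjusted p = 0.996).

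**Figure D4:**
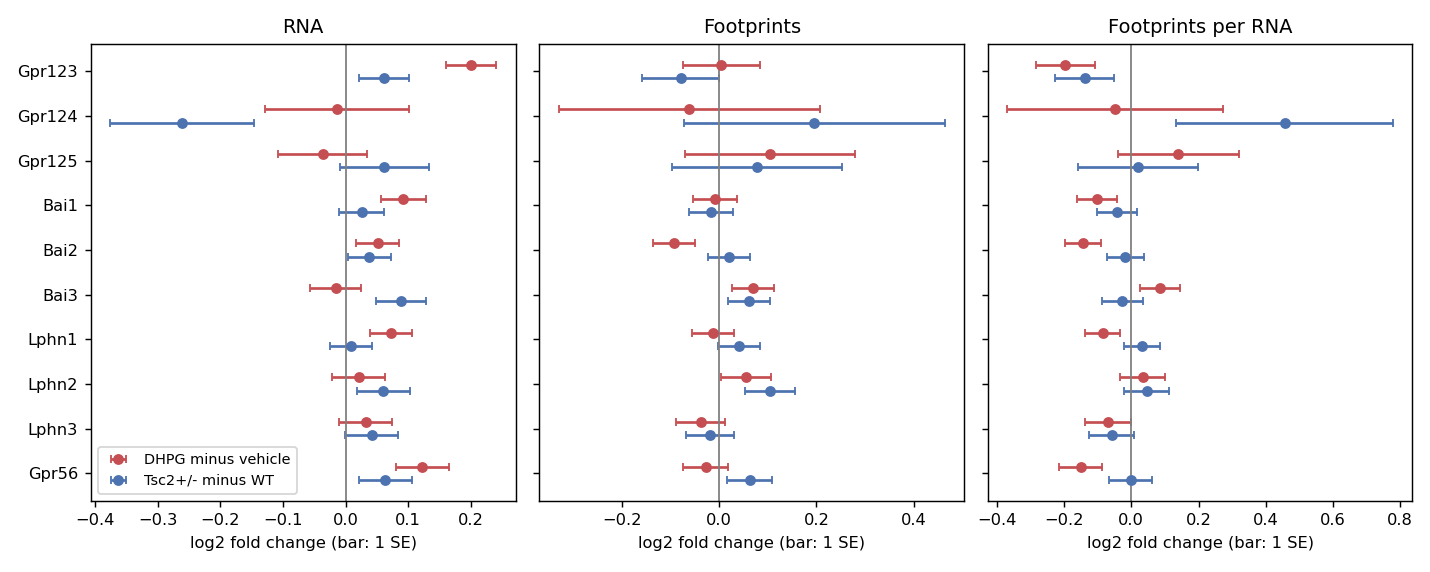
Log2 fold changes of the 10 members in RNA, footprints and footprints per RNA, averaged over the other factor, with bars of 1 SE; red is DHPG minus vehicle and blue is Tsc2+/- minus WT. Gpr123 RNA with DHPG (0.20), the value the group was selected on, is the furthest from 0 of the DHPG values in RNA; Gpr124 has the widest bars, with genotype values of -0.26 in RNA and 0.46 in footprints per RNA.

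The genes whose RNA pattern was most like that of Gpr123 over the 12 libraries, each replicate number centred, were Slc35c1 (Pearson's r 0.952), Kif21b (0.947) and Prrt3 (0.931). Slc35c1 is a transporter of GDP-fucose and Kif21b a kinesin. Their RNA differed by 0.15 on the log2 scale with DHPG in each case, which follows from the choice of genes that track Gpr123 and is no separate result. Of the members, Gpr56 (0.702), Bai1 (0.677) and Lphn1 (0.594) were most alike, and Gpr125 least (-0.173). Gpr56, Bai1 and Lphn1 ranked only 324, 417 and 810 by this r among all genes tested in RNA. These r values are a description over libraries that share groups and replicate numbers.

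Other adhesion GPCRs and known partners gave 0 calls in any comparison. Of 20 other adhesion GPCRs, 11 could be tested in RNA and 10 in footprints. Celsr2, of the flamingo cadherins, was the most abundant per length (54.7 RNA CPM per kb), followed by Celsr3 (2.54) and the endothelial receptor Eltd1 (2.48). Celsr2 RNA differed by 0.09 with DHPG averaged over the genotypes (SE 0.0407, edgeR adjusted p = 0.638) and by 0.10 in WT. Its footprints per RNA differed by -0.28 in WT (SE 0.0931, adjusted p = 0.347). Over the 11 tested in RNA, the median averaged difference with DHPG was 0.11, beside 0.00 for all genes. Of these, 9 of 11 were positive, beside 49.5% of all genes. That median equals the value of Gpr98 (SE 0.2533), which had 293 RNA counts over the 12 libraries. Gpr126 (277), Gpr133 (384) and Gpr64 (487) were also sparse, so the median carries little information. Footprints per RNA were lower after DHPG for 8 of 10 in WT (median -0.21) and 7 of 10 in Tsc2+/- (-0.07), beside 0.00 for all genes. Sparse genes are among these too.

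Of 22 ligands and extracellular partners 21 were tested, among them teneurins, FLRT proteins, neurexins, C1q-like proteins, Reck and the Wnt7 ligands. The most abundant per length were the neurexin Nrxn2 (95.7 RNA CPM per kb) and the Nogo receptors Rtn4r (74.7) and Rtn4rl2 (73.3). Their log2 differences in RNA with DHPG, averaged over the genotypes, were 0.08, 0.04 and 0.10 (edgeR adjusted p of 0.626, 0.86 and 0.638). All 22 intracellular partners were tested, among them ELMO and DOCK proteins, MAGI and SHANK scaffolds and G proteins. Dlg4 (PSD-95, 477 RNA CPM per kb), Shank1 (187) and Rac1 (158) led. Their averaged RNA differences were 0.05, 0.13 and 0.00 (edgeR adjusted p of 0.744, 0.671 and 0.999). In WT, RNA was higher after DHPG in 17 of 22 intracellular and 16 of 21 extracellular partners. The medians were 0.06 and 0.06, beside 0.00 for all genes, and the same RNA enters footprints per RNA. For footprints per RNA in WT, 17 of 22 intracellular and 15 of 21 extracellular partners were lower after DHPG, with medians of -0.11 and -0.08 beside 0.00 for all genes. In Tsc2+/- 9 of 22 and 12 of 21 were lower, with medians of 0.01 and 0.00, and the difference between genotypes was not tested.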

How the data were processed

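The deposited values were expected counts per gene from RSEM for 12 RNA-seq and 12 ribosome profiling libraries of hippocampal slices, deposited as whole numbers. Per the study's methods and the labels, the authors trimmed adapters (cutadapt), removed rRNA and tRNA reads (Bowtie2), mapped to mm10 (TopHat2), kept unique reads and collapsed duplicates by molecular identifier. RNA reads were counted over whole transcripts and RPF reads over coding sequences without their ends.

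Groups follow the genotype, treatment and assay given in the labels. Genes were kept by filterByExpr at a minimum count of 10 (14516 in RNA, 12877 in RPF, 12785 in both), scaled by TMM and tested, two-sided, with the robust quasi-likelihood test of edgeR 4.0.16 in R 4.3.3, fitted to all 12 libraries of an assay with terms for group and for replicate number. For footprints per RNA, 1 model took all 24 libraries and tested how a group difference varied by assay. Benjamini-Hochberg adjustment covered every gene tested, and a gene was called at an adjusted p under 0.1. SEs were derived from the F statistic, and a prior count of 2 entered log2 CPM. The newer form of the quasi-likelihood fit was chosen over the package's legacy form after results of both had been seen. Densities used the RefSeq transcript with the longest coding sequence (GRCm38.p6) and, for footprints, left out the ends the authors had removed. Procedures were tested on simulated data. Alternatives included no replicate block, DESeq2 1.42.0, ComBat in sva 3.50.0 with DESeq2, other scaling and filtering, halved RPF counts and leaving out replicates or libraries.

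The replicate number was taken as the study's batch, which its methods correct for. Deviations of same-numbered libraries from their group means correlated at 0.023 to 0.143 in RNA and 0.033 to 0.263 in RPF, and of others at no more than 0.024 and 0.067, so not every pair was over 0.1. Pooled slices are not separate mice, so p-values measure the spread between these pools. The members and lists were chosen with earlier results of these data known. All 10 members were named, and from each list any called gene or otherwise the 3 with the highest RNA per length in WT vehicle. The 3 genes most like Gpr123 were named by their Pearson's r.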

Additional observations from a re-analysis of the deposited data

How the results depend on the processing

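The 25 member differences that were tried included all those with an unadjusted p under 0.05 in the main edgeR fit. They also included the DHPG differences of Gpr123 in RNA and in footprints per RNA, whatever their p. The direction of all 25 held under every alternative. Differences picked for lying away from 0 seldom change sign in refits of mostly the same libraries, so this is a description. In the averaged RNA response to DHPG, the number of members called was 1, Gpr123, which was chosen on that response so that the count is a description, and it was 0 with DESeq2, at an adjusted p under 0.05 and without the replicate block, and 0 to 2 when single libraries or replicate numbers were left out. The RNA response in WT gave 0 to 2 and that of footprints per RNA in WT 0 to 2 in the same way, the 2 in each case without replicate 2 of WT vehicle (its RNA library for footprints per RNA). Without the block, all-gene calls in the averaged RNA genotype comparison fell from 36 to 17, and the fit without the block called 0 members in every comparison. With lysate as a block for footprints per RNA, 0 members were called. DESeq2 called 26 genes against 3 in the averaged RNA response, 15 against 4 in footprints, and 65 against 6 averaged and 101 against 7 in WT for footprints per RNA. The legacy quasi-likelihood fit, chosen as an alternative after seeing the data, called 1 member in the averaged RNA response and 33 genes in the averaged RNA genotype comparison. Gpr123 RNA with DHPG, averaged, ranged from 0.15 to 0.25 over the alternatives, and its footprints per RNA in Tsc2+/- reached -0.38 without RPF replicate 1 of Tsc2+/- DHPG. The cause of these shifts was not tested. Halved RPF counts of replicates 2 and 3 also called 0 members, and depth limits Gpr124, with as few as 10 footprint counts in a library.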
